A study of Mus musculus with 9 samples.

Results

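The genes described here are 41 mouse genes of the interferon response and of nucleic acid sensing, taken by symbol from a table of 37882 genes. All 41 were found in the table, each in 1 row. They were measured in LSK cells, bone marrow cells sorted for Sca1 and cKit and against lineage markers, which include the stem cells of the blood. K36M mice carried histone H3.3 with methionine in place of lysine 36 at Col1a1, and K9M mice carried H3.3 with methionine in place of lysine 9 at the same locus. rtTA mice, the controls, carried no histone transgene. Mice of all 3 groups carried rtTA, the doxycycline-dependent activator, in Rosa26, were on a B6/129 background and were 6 to 8 weeks old. All were given doxycycline at 2 mg/ml and sucrose at 10 mg/ml in the water, so any effect of rtTA or of doxycycline is shared by the controls. There were 3 mice a group, 1 library a mouse. H3.3 without a mutation was not expressed from a transgene in any group, so an effect of the mutation and an effect of the added H3.3 cannot be told apart against rtTA. The sources used here do not give the promoter that drives the transgene or the length of doxycycline treatment.

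Cells detect foreign or misplaced RNA and DNA with sensor proteins that signal through adaptors to make interferon. Interferon binds its receptors and activates STAT and IRF transcription factors, which switch on antiviral genes through a short DNA element, the interferon-stimulated response element. Loss of repressive chromatin can release transcripts of silenced repeats that these sensors read as viral, a state known as viral mimicry. Histones with methionine at lysine 9 or lysine 36 are known to block the enzymes that methylate that lysine. The comparisons below ask whether LSK cells with either mutant histone had more RNA of the sensors and of the genes that interferon induces. The RNA of repeats was not analysed here.

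Values are RPKM, reads scaled to transcript length and library size by the authors. Depth, read from the smallest steps between RPKM values, was about 36900000 to 50300000 reads in K36M libraries, 15900000 to 48900000 in K9M libraries and 16600000 to 33800000 in rtTA libraries. 1 read in a gene of 1 kb was therefore worth 0.0199 to 0.063 RPKM. Tests used limma on log2(RPKM + 0.5), a scale that understates changes of low genes, over the 12926 genes that reached 1 RPKM in 3 or more libraries. A gene was called at a two-sided Benjamini-Hochberg adjusted p under 0.05. To check the labels, H3f3a, which encodes H3.3, averaged 460 ± 44.2 RPKM in K36M, 300 ± 17.5 RPKM in K9M and 224 ± 32.3 RPKM in rtTA libraries (SD, n = 3 each). It was called higher in K36M (log2 fold change 1.04, limma adjusted p = 0.0141) and not called in K9M (0.43, limma adjusted p = 0.509) against rtTA, and reads of the transgene cannot be told apart from those of H3f3a here. The K36M call was lost without K36M 1 (limma adjusted p = 0.0744), K36M 3 (0.071) or rtTA 3 (0.0566). H3f3c, a near-identical copy whose level is uncertain for that reason, was called higher in both mutants, at 2311, 1588 and 2115 RPKM in K36M, 912, 807 and 871 RPKM in K9M and 214, 238 and 315 RPKM in rtTA libraries. Its log2 fold changes were 2.97 in K36M (limma adjusted p = 0.000437) and 1.77 in K9M (limma adjusted p = 0.0126), and the K9M call was lost without K9M 1 (0.0666), K9M 2 (0.0715), K9M 3 (0.0595) or rtTA 2 (0.0665). H3f3c was also called higher in K36M than in K9M (log2 fold change 1.20, limma adjusted p = 0.0207), and H3f3a was not called there (0.61, limma adjusted p = 0.0519). Between the mutants, the mutation and this difference in level therefore cannot be told apart. Kit, a marker of the sort, averaged 66.2 ± 11.3 RPKM in K36M, 86.4 ± 5.45 RPKM in K9M and 95.4 ± 7.17 RPKM in rtTA libraries. All K36M values of Kit lay below all others. Its log2 fold changes were -0.54 against rtTA (limma adjusted p = 0.0918) and -0.39 against K9M (limma adjusted p = 0.159), neither called. The other sort marker, Ly6a, is itself an interferon-induced gene. Ly6a stood at 192, 154 and 119 RPKM in K36M, 172, 125 and 160 RPKM in K9M and 292, 125 and 120 RPKM in rtTA libraries, so its groups overlapped. In bulk samples, fewer cells of a type and less RNA per cell cannot be told apart.

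In K36M 1 member, Xaf1, was called higher than in rtTA, in K9M none was, and most fold changes against rtTA lay below 0 in both mutants. Of the 41 members, 39 passed the filter on low values, and Tlr3 and Mx1 did not. In K36M against rtTA, Xaf1 rose and Gbp2 fell, and no other member passed the test, so 2 of 39 members were called in a comparison where 1.50% of all tested genes were called, 0.572% higher and 0.928% lower. In K9M against rtTA, limma called 0 of 39 members, where 0.116% of all tested genes were called, 0.0928% higher and 0.0232% lower. At an unadjusted p under 0.05, 5 of 39 members passed there (2 higher and 3 lower), where 7.11% of all tested genes did. At that threshold 8 of 39 passed in K36M against rtTA (1 higher and 7 lower), where 19.1% of all tested genes did, and 5 of 39 in K36M against K9M, where 18.8% did. Between the mutants, Gbp2 and Ifit2 were lower in K36M than in K9M, 2 of 39 members, where 2.52% of all tested genes were called, 1.02% higher and 1.50% lower in K36M. For 38 of the 39 members the 95% interval of the fold change lay wholly below a 2-fold rise in each mutant against rtTA, as it did for 91.4% of all tested genes in K36M and 92.0% in K9M. The exception was Xaf1 in both. Between the mutants this held for 36 of 39 members, Oas1a, Oas2 and Gbp3 being the exceptions, and for 90.7% of all tested genes.

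**Figure D1:**
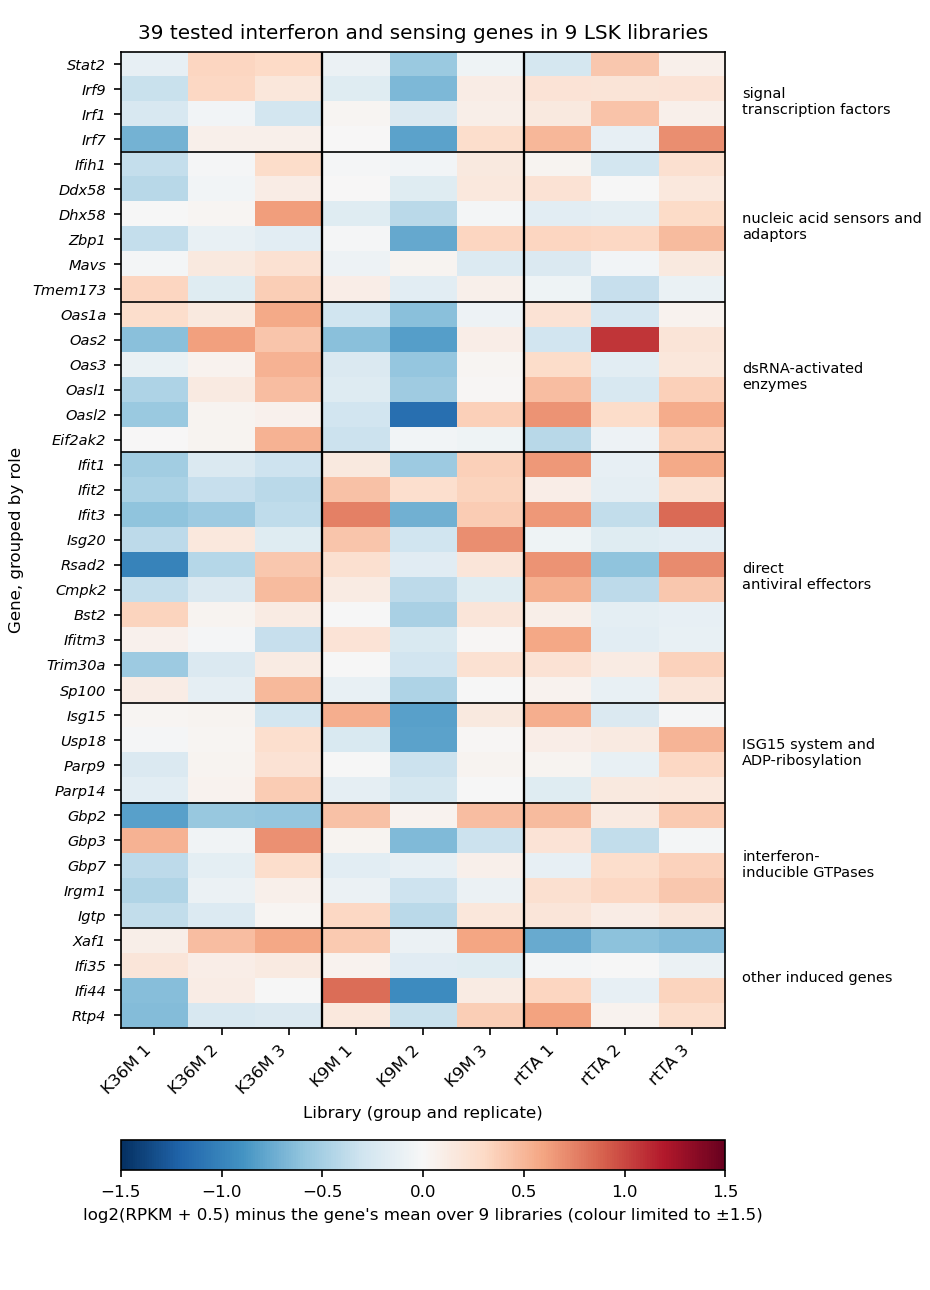
Log2(RPKM + 0.5) of each of the 39 tested members (rows, grouped by role) in each of the 9 libraries (columns), as the difference from the gene's mean over the 9 libraries, red above and blue below it. Libraries run K36M 1 to 3, K9M 1 to 3 and rtTA 1 to 3, and the column of K9M 2, with a mean deviation of -0.41 over the 39 tested members, holds the lowest value of 22 of them.

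Most fold changes were small and below 0. In K36M against rtTA the median over the 39 members was -0.17, with 26 negative and 13 positive fold changes, against a median of 0.02 and 52.3% positive over all tested genes. In K9M against rtTA the median was -0.23, with 34 negative and 5 positive, against a median of 0.01 and 51.3% positive over all tested genes. The same rtTA libraries entered both. The medians depended on single libraries: without K36M 1 the K36M median was -0.05, with 20 members negative, and without rtTA 1 it was -0.08. Without K9M 2 the K9M median was -0.10, with 27 members negative. In K36M against K9M the median was 0.08, with 21 positive and 18 negative, where 51.1% of all tested genes were positive, and without K9M 2 it was -0.07.

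**Figure D2:**
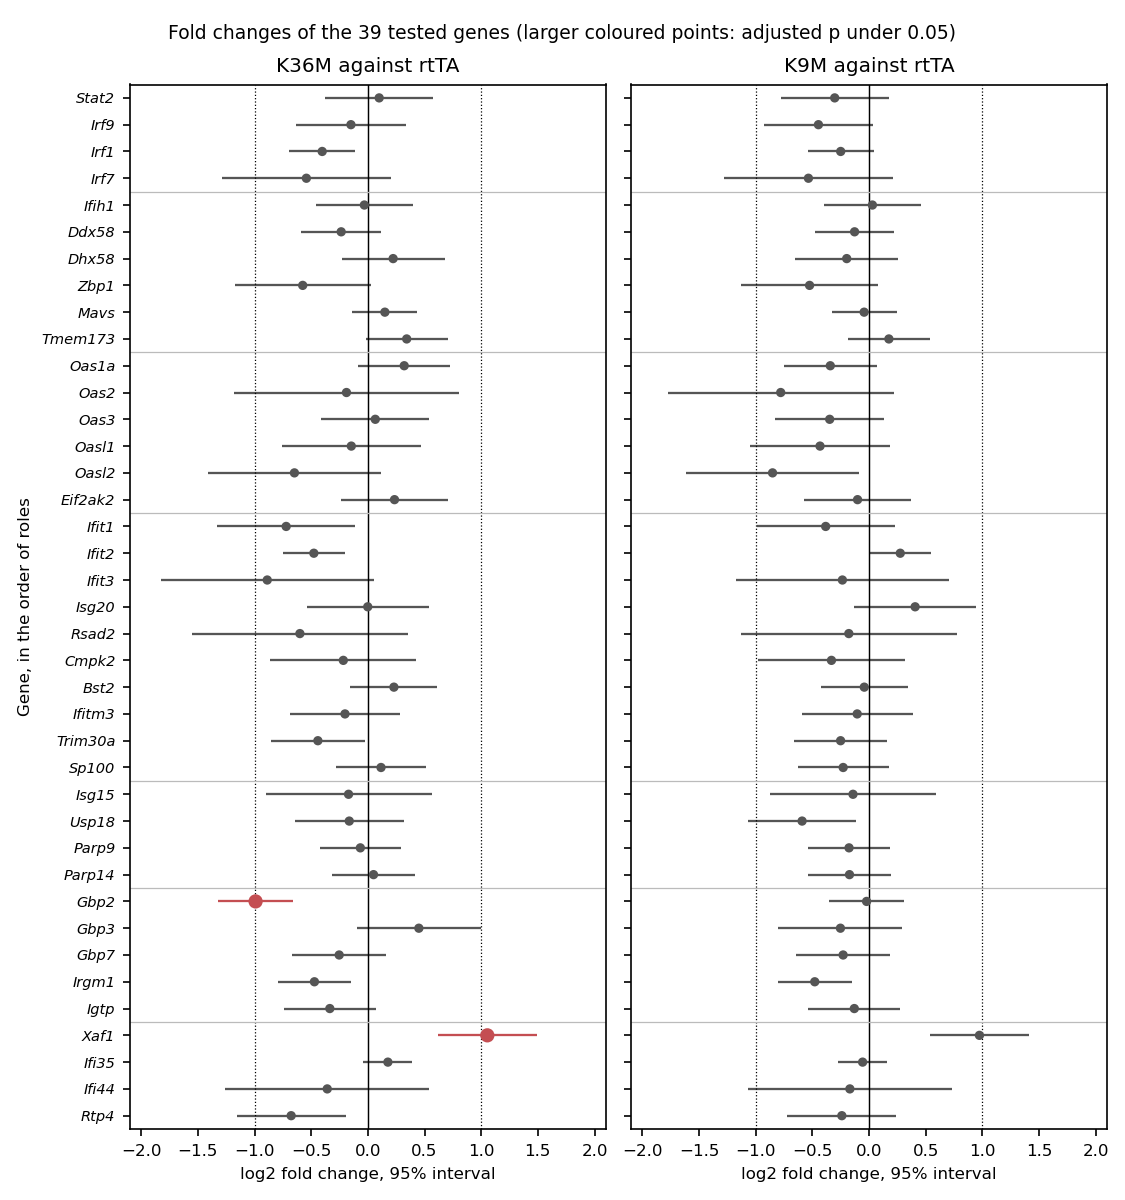
Log2 fold change of each tested member with its 95% interval from limma, in K36M against rtTA (left) and K9M against rtTA (right), by role. Dotted lines mark a 2-fold change, and larger red points mark called members: Gbp2 at -0.99 and Xaf1 at 1.05 in K36M against rtTA, and none in K9M against rtTA.

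The ligands were nearly silent. Of 21 interferon genes listed, 17 were in the table, and 13 of these were listed at 0 in every library. Ifnb1, which encodes interferon beta, was among those listed at 0. The highest value of any ligand was 0.335 RPKM, for Ifnz in K9M 1, and Ifng, which encodes interferon gamma, did not exceed 0.0332 RPKM. No ligand passed the filter, so none was tested.

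Receptors, kinases and feedback regulators were expressed, and none was called. Of 16 listed, 15 were tested, and 0 were called by limma in any of the 3 comparisons. At an unadjusted p under 0.05, 2 of these 15 passed in K36M against rtTA, where 19.1% of all tested genes did, 2 in K9M against rtTA, where 7.11% did, and 4 in K36M against K9M, where 18.8% did. Ifnar1, a chain of the receptor for type I interferon, stood at 11, 12.4 and 14.3 RPKM in K36M, 12.2, 12.2 and 12.1 RPKM in K9M and 11.1, 12 and 13.7 RPKM in rtTA libraries. The 3 groups overlapped. Socs3, a feedback inhibitor of JAK and STAT signalling, had the smallest p of the list in both mutants, with log2 fold changes of -0.42 in K36M (limma adjusted p = 0.197) and -0.67 in K9M (limma adjusted p = 0.268) against rtTA. The median of the 15 was -0.02 in K36M and -0.18 in K9M against rtTA, and 14 of the 15 were negative in K9M.

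Of the 6 tested sensors and adaptors, limma called 0 in any comparison, and none had an unadjusted p under 0.05. Ddx58, which encodes RIG-I, a sensor of viral RNA ends, stood at 6.35, 8.43 and 9.41 RPKM in K36M, 8.7, 7.56 and 9.74 RPKM in K9M and 10.1, 8.65 and 9.70 RPKM in rtTA libraries. Ifih1, which encodes MDA5, a sensor of long double-stranded RNA, stood at 3.47, 4.50 and 5.66 RPKM in K36M, 4.52, 4.43 and 5.10 RPKM in K9M and 4.70, 3.68 and 5.51 RPKM in rtTA libraries. The groups overlapped for both genes, and the log2 fold changes of Ifih1 were -0.03 in K36M (95% interval -0.46 to 0.40) and 0.03 in K9M (-0.40 to 0.46) against rtTA. Mavs, the mitochondrial adaptor of both sensors, stood at 11, 12.6 and 13.3 RPKM in K36M, 10.7, 11.6 and 9.78 RPKM in K9M and 9.68, 11 and 12.6 RPKM in rtTA libraries. Dhx58, which encodes LGP2, a relative of RIG-I that modulates sensing, stood at 7.66, 7.91 and 12.2 RPKM in K36M, 6.75, 5.70 and 7.57 RPKM in K9M and 6.84, 6.92 and 9.53 RPKM in rtTA libraries. All K36M values of Dhx58 lay above all K9M values, by a log2 fold change of 0.42 that was not called (limma adjusted p = 0.307).

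Tmem173 encodes STING, the adaptor of cytosolic DNA sensing, and had the highest level of the sensing members. It stood at 57.0, 40.2 and 59.3 RPKM in K36M, 48.9, 40.7 and 48.0 RPKM in K9M and 43.5, 35.7 and 42.6 RPKM in rtTA libraries. The groups overlapped, and the log2 fold changes were 0.34 in K36M (limma adjusted p = 0.285) and 0.17 in K9M (limma adjusted p = 0.855) against rtTA. Zbp1, a sensor of left-handed nucleic acids, was low, at 1.09, 1.38 and 1.33 RPKM in K36M, 1.51, 0.693 and 2.04 RPKM in K9M and 2.04, 2.03 and 2.32 RPKM in rtTA libraries. Its K36M values lay below all its rtTA values, and its log2 fold change of -0.58 was not called (limma adjusted p = 0.282). Tlr3, the endosomal receptor for double-stranded RNA, reached at most 0.376 RPKM in any library. Among 30 further tested genes of sensing, adaptors and nucleases that remove stray nucleic acids, 0 were called by limma in any comparison, and 7, 2 and 7 had an unadjusted p under 0.05 in K36M against rtTA, K9M against rtTA and K36M against K9M, where 19.1%, 7.11% and 18.8% of all tested genes did. Their median log2 fold change was 0.01 in K36M and -0.14 in K9M against rtTA. The smallest p in K36M against rtTA belonged to Zcchc3, a cofactor of RNA and DNA sensing, at -0.66 (limma adjusted p = 0.123).

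Of the 4 transcription factors, limma called 0 in any comparison, and Irf1 in K36M against rtTA alone had an unadjusted p under 0.05. Irf1, which drives genes of the gamma interferon response, stood at 23.3, 26.8 and 22.8 RPKM in K36M, 28.1, 23.7 and 29.5 RPKM in K9M and 30.7, 37.4 and 29.1 RPKM in rtTA libraries. All K36M values of Irf1 lay below all rtTA values, and the log2 fold change of -0.40 was not called (limma adjusted p = 0.147). Irf7, which amplifies type I interferon output and is itself induced by it, stood at 4, 7.27 and 7.25 RPKM in K36M, 6.90, 3.72 and 8.33 RPKM in K9M and 9.92, 6.27 and 11.4 RPKM in rtTA libraries. Its log2 fold change was -0.54 in each mutant against rtTA, with 95% intervals of -1.29 to 0.20 in K36M and -1.28 to 0.21 in K9M. Stat2 and Irf9 are parts of the complex that binds the response element. Stat2 averaged 8.23 ± 1.42 RPKM in K36M, 6.12 ± 1.21 RPKM in K9M and 7.71 ± 1.88 RPKM in rtTA libraries (SD, n = 3 each), and Irf9 averaged 19.5 ± 4.47, 15.9 ± 4.30 and 21.3 ± 0.141 RPKM in K36M, K9M and rtTA libraries.

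Of the 6 enzymes that double-stranded RNA activates, limma called 0 in any comparison, and Oasl2 in K9M against rtTA and Oas1a in K36M against K9M had an unadjusted p under 0.05. Oas1a makes oligoadenylates that switch on RNase L, and it stood at 22, 20.2 and 27.2 RPKM in K36M, 14.7, 11.6 and 17.2 RPKM in K9M and 21.3, 15.1 and 18.9 RPKM in rtTA libraries. All K36M values of Oas1a lay above all K9M values, by a log2 fold change of 0.66 (95% interval 0.25 to 1.07) that was not called (limma adjusted p = 0.0912). The level of Oas1a is uncertain, since 57.6% of its 50-base windows also occur in other annotated genes, Oas1b and Oas1g among them. Oasl2, an oligoadenylate synthetase-like gene, stood at 6.51, 10.0 and 10.3 RPKM in K36M, 7.95, 4.18 and 12.7 RPKM in K9M and 15.9, 11.9 and 14.6 RPKM in rtTA libraries. Its K36M values lay below all its rtTA values and its K9M values overlapped them, with log2 fold changes of -0.65 in K36M (limma adjusted p = 0.334) and -0.85 in K9M (limma adjusted p = 0.653). Eif2ak2 encodes PKR, which halts translation when it binds double-stranded RNA, and stood at 11.2, 11.5 and 16.3 RPKM in K36M, 8.80, 10.8 and 10.6 RPKM in K9M and 8.24, 10.6 and 14.4 RPKM in rtTA libraries. The rtTA libraries spanned the K9M values and overlapped the K36M values. Oas3, a synthetase for long double-stranded RNA, ranged from 3.61 to 8.30 RPKM over the 9 libraries, and Oasl1, which in mouse restrains Irf7 translation, ranged from 2.78 to 6.08 RPKM. Oas2 ranged from 0.484 to 3.18 RPKM, both extremes being single libraries of K9M and rtTA. All 6 enzymes had a negative fold change in K9M against rtTA, where 48.7% of all tested genes did, with a median of -0.39. All 6 had a positive one in K36M against K9M, where 51.1% of all tested genes did, with a median of 0.37. None of these changes was called. The same K9M libraries entered both comparisons, and K9M 2 had the lowest value of the 9 libraries for every enzyme but Eif2ak2.

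Among the antiviral effectors, Ifit2 separated the 2 mutants. Ifit2 belongs to a family of proteins that bind viral RNA and hold back its translation. It stood at 5.13, 5.66 and 5.45 RPKM in K36M, 10.1, 8.89 and 9.39 RPKM in K9M and 7.92, 6.63 and 8.77 RPKM in rtTA libraries. All K36M values lay below all rtTA values, and all K9M values lay above all rtTA values. Ifit2 fell in K36M to 0.594-fold of K9M (log2 fold change -0.75, SE 0.12, 95% interval -1.03 to -0.48, limma adjusted p = 0.0212). Against rtTA the log2 fold changes were -0.48 in K36M (limma adjusted p = 0.0924) and 0.28 in K9M (limma adjusted p = 0.701), neither called. The call in K36M against K9M was lost without K36M 1 (limma adjusted p = 0.0879), K36M 3 (0.0912), K9M 1 (0.0952), K9M 2 (0.0588) or K9M 3 (0.0849), and the lowest over the 19 alternatives was 0.0115. Ifit2 lies on chromosome 19 from 34550694 to 34576419, plus strand (GENCODE M21, mm10), and none of its 50-base windows occur in another annotated gene. Its promoter window is shown because Ifit2 is one of the 3 called members. It runs from 250 bases before to 50 bases after the first RefSeq start (GRCm38.p6, chr19:34550444-34550743, plus strand), and capitals mark its only match, a gamma-activated site:
Ifit2: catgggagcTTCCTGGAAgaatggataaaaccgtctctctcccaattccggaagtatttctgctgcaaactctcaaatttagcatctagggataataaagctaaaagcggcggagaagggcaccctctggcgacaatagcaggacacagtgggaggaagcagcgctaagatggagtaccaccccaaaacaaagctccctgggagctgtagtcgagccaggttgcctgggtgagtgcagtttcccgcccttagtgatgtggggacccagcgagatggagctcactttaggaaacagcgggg
The window holds no match to the response element core, and neither does the window at the other RefSeq start of Ifit2.

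**Figure D3:**
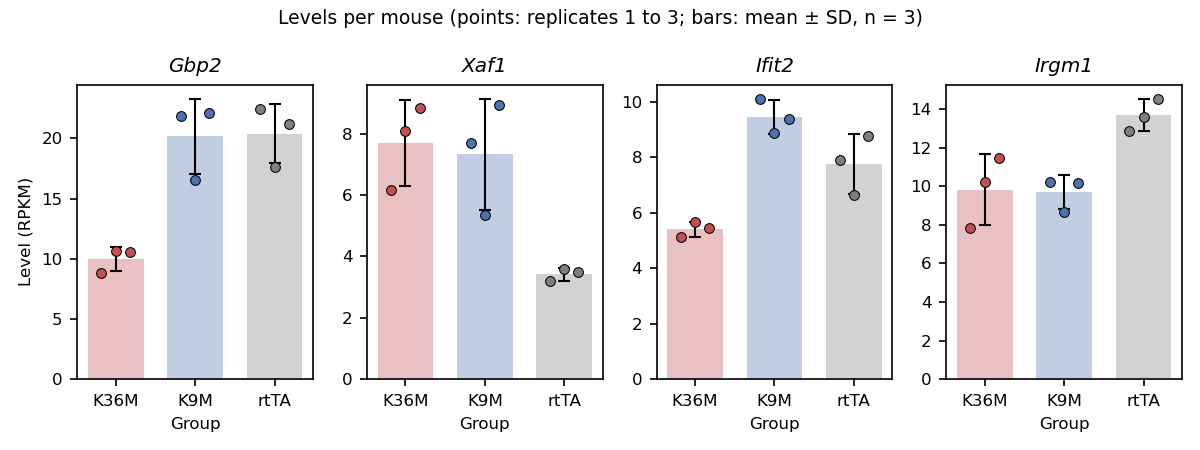
RPKM of Gbp2, Xaf1, Ifit2 and Irgm1 in each library (points), with group means and SD (n = 3 each), K36M left, then K9M, then rtTA. Gbp2 averaged 9.99 RPKM in K36M against 20.2 RPKM in K9M and 20.4 RPKM in rtTA libraries, and Xaf1 averaged 7.70 RPKM in K36M and 7.33 RPKM in K9M against 3.41 RPKM in rtTA libraries.

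Ifit1 and Ifit3, the other 2 members of that family, were not called. Ifit1, which binds RNA lacking the host's cap marks, stood at 2.53, 3.24 and 3.02 RPKM in K36M, 4.34, 2.49 and 5.07 RPKM in K9M and 6.37, 3.52 and 5.98 RPKM in rtTA libraries. Ifit3, which stabilises Ifit1 in human cells, stood at 0.739, 0.792 and 0.944 RPKM in K36M, 2.69, 0.649 and 1.95 RPKM in K9M and 2.45, 0.966 and 2.89 RPKM in rtTA libraries. For both genes all K36M values lay below all rtTA values, with log2 fold changes of -0.72 (limma adjusted p = 0.198) and -0.89 (limma adjusted p = 0.286). The level of Ifit3 is uncertain, since 51.2% of its 50-base windows also occur in other annotated genes, Ifit3b among them. In both genes K9M 2 and rtTA 2 had the lowest value of their group.

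None of the other effectors was called by limma in any comparison, and among them Trim30a in K36M against rtTA alone had an unadjusted p under 0.05. Ifitm3, which blocks fusion of viruses with cell membranes, had the highest level of all 41 members, at 305, 287 and 228 RPKM in K36M, 335, 248 and 294 RPKM in K9M and 435, 260 and 269 RPKM in rtTA libraries. Bst2, which tethers budding viruses, ranged from 70.1 to 86.2 RPKM in K36M, 48.5 to 77.4 RPKM in K9M and 61.4 to 72.4 RPKM in rtTA libraries. The groups of both genes overlapped. Rsad2, which encodes viperin, a maker of a chain-terminating nucleotide, stood at 1.05, 1.82 and 3.63 RPKM in K36M, 3.17, 2.27 and 3.03 RPKM in K9M and 4.49, 1.54 and 4.60 RPKM in rtTA libraries. Cmpk2, a mitochondrial nucleotide kinase encoded beside Rsad2, ranged from 6.62 to 12.2 RPKM in K36M, 6.48 to 9.46 RPKM in K9M and 6.48 to 12.7 RPKM in rtTA libraries. Isg20, an RNA exonuclease, stood at 6.39, 9.63 and 7.5 RPKM in K36M, 11.6, 6.88 and 14.1 RPKM in K9M and 8.14, 7.51 and 7.6 RPKM in rtTA libraries. Its groups overlapped, and its log2 fold change in K9M of 0.41 (limma adjusted p = 0.769) was one of the 5 positive ones there. Trim30a, which restrains inflammatory signalling, stood at 11.8, 15.0 and 19.1 RPKM in K36M, 17.4, 14.3 and 20.5 RPKM in K9M and 20.3, 19.1 and 22.4 RPKM in rtTA libraries, with no K36M value above the lowest rtTA value (log2 fold change -0.44, limma adjusted p = 0.238). Sp100, a component of nuclear bodies, had log2 fold changes of 0.12 in K36M and -0.23 in K9M against rtTA. Mx1, a dynamin-like GTPase that traps incoming viruses, reached at most 0.731 RPKM in any library. Of the 10 tested effectors, 8 had a negative fold change against rtTA in each mutant, with medians of -0.33 in K36M and -0.20 in K9M.

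Isg15, a ubiquitin-like protein that interferon induces and that is attached to other proteins, is a standard marker of the response. It stood at 13.7, 13.8 and 11 RPKM in K36M, 19.8, 7.41 and 14.9 RPKM in K9M and 19.8, 11.4 and 13.3 RPKM in rtTA libraries. The groups overlapped, and the log2 fold changes were -0.17 in K36M (95% interval -0.90 to 0.56) and -0.14 in K9M (-0.87 to 0.59) against rtTA. Usp18 removes Isg15 and shuts off receptor signalling, and it stood at 5.87, 6.09 and 7.19 RPKM in K36M, 5, 3.20 and 6.04 RPKM in K9M and 6.43, 6.61 and 8.73 RPKM in rtTA libraries. All K9M values of Usp18 lay below all rtTA values, by a log2 fold change of -0.59 that was not called (limma adjusted p = 0.587). Parp9 and Parp14, which act in ADP-ribosylation, had log2 fold changes between -0.18 and 0.05 against rtTA in both mutants.

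Gbp2 was the member with the smallest p in K36M against rtTA. It encodes a guanylate-binding protein, one of the large GTPases that gamma interferon induces and that attack the membranes around intracellular microbes. It stood at 8.82, 10.6 and 10.5 RPKM in K36M, 21.8, 16.5 and 22.1 RPKM in K9M and 22.4, 17.6 and 21.2 RPKM in rtTA libraries. Every K36M value lay below every other value, while K9M and rtTA libraries overlapped. Gbp2 fell in K36M to 0.503-fold of rtTA (log2 fold change -0.99, SE 0.15, 95% interval -1.32 to -0.66, limma adjusted p = 0.02). It was lower in K36M than in K9M by a like amount (log2 fold change -0.97, SE 0.15, limma adjusted p = 0.0191), and in K9M against rtTA its log2 fold change was -0.02 (95% interval -0.35 to 0.31). The call against rtTA was lost without K36M 1 (limma adjusted p = 0.102), K36M 3 (0.08), rtTA 1 (0.0522) or rtTA 3 (0.0731) and with only the 2 groups compared (0.0627), while the log2 fold change stayed between -1.09 and -0.91. The call against K9M was lost without K36M 1 (0.0803), K36M 3 (0.0741), K9M 1 (0.0787) or K9M 3 (0.0809). Gbp2 lies on chromosome 3 from 142620602 to 142638008, plus strand, and 2.1% of its 50-base windows occur in other annotated genes. The promoter window of Gbp2 (GRCm38.p6, chr3:142620413-142620712, plus strand) is shown because Gbp2 was called in 2 comparisons. Capitals mark its match to the response element core, which begins at base -59 from the RefSeq start and reads on the opposite strand:
Gbp2: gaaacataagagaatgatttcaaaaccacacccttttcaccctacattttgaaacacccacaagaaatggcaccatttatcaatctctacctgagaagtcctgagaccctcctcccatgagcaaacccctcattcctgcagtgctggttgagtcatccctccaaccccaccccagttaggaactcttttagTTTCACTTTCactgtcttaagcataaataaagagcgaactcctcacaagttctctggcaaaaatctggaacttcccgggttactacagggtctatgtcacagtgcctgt

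Gbp3, Gbp7, Irgm1 and Igtp were not called in any comparison. Gbp3 and Gbp7 lie in the same cluster of genes on chromosome 3. Gbp3 stood at 18.9, 12.5 and 21.2 RPKM in K36M, 13.4, 8.00 and 10.3 RPKM in K9M and 15.0, 9.97 and 12.7 RPKM in rtTA libraries. Its log2 fold changes were positive, 0.45 against rtTA (limma adjusted p = 0.352) and 0.70 against K9M (limma adjusted p = 0.162), and the groups overlapped in both. Gbp7 had log2 fold changes of -0.25 in K36M and -0.23 in K9M against rtTA, with overlapping groups. Irgm1 and Igtp are immunity-related GTPases that act on vacuoles and in autophagy. Irgm1 stood at 7.81, 10.2 and 11.4 RPKM in K36M, 10.2, 8.66 and 10.2 RPKM in K9M and 12.9, 13.6 and 14.5 RPKM in rtTA libraries. All 6 values of the mutants lay below all 3 rtTA values, with log2 fold changes of -0.47 in K36M (limma adjusted p = 0.135) and -0.48 in K9M (limma adjusted p = 0.479), neither called. Igtp stood at 11.3, 12.6 and 14.9 RPKM in K36M, 18.2, 11 and 16.5 RPKM in K9M and 16.7, 15.8 and 16.6 RPKM in rtTA libraries, and its K36M values lay below the rtTA values by a log2 fold change of -0.34 (limma adjusted p = 0.348).

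Xaf1 was the only member called higher in K36M against rtTA. It encodes a factor that antagonises the caspase inhibitor XIAP and is induced by interferon. It stood at 6.15, 8.09 and 8.85 RPKM in K36M, 7.70, 5.35 and 8.93 RPKM in K9M and 3.18, 3.58 and 3.47 RPKM in rtTA libraries. All 6 mutant values lay above all 3 rtTA values, and the K36M and K9M values overlapped. Xaf1 rose 2.08-fold in K36M against rtTA (log2 fold change 1.05, SE 0.19, 95% interval 0.62 to 1.49, limma adjusted p = 0.0373). In K9M against rtTA the log2 fold change was 0.97 (SE 0.19, 95% interval 0.54 to 1.41) and was not called (limma adjusted p = 0.151). Between K36M and K9M it was 0.08 (95% interval -0.36 to 0.52). The call in K36M held in 9 of 19 alternatives. It was lost without K36M 1 (limma adjusted p = 0.088), K36M 2 (0.0569), K36M 3 (0.152), K9M 1 (0.0732), K9M 3 (0.0519), rtTA 1 (0.089), rtTA 2 (0.0747) or rtTA 3 (0.112), without the filter on low values (0.0827) and with only the 2 groups compared (0.0799). The limma adjusted p ranged from 0.0283 to 0.152 over these alternatives and the log2 fold change from 0.95 to 1.20.

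Xaf1 lies on chromosome 11 from 72301629 to 72313733, plus strand, and Col1a1, where both transgenes were placed, lies on the same chromosome, 22.6 Mb away. Both mutant groups carry a modified Col1a1 locus and the rtTA group does not, so the presence of any transgene there and the mutation cannot be told apart. Of 1106 tested genes on chromosome 11, 1.18% were called in K36M against rtTA, against 1.50% of all tested genes. Of 12 tested genes within 500 kb of the start of Xaf1, Xaf1 alone was called in that comparison. These are counts of calls, and the part of the modified locus in the level of Xaf1 was not tested. The promoter window of Xaf1 (GRCm38.p6, chr11:72301379-72301678, plus strand) is shown because Xaf1 was called in K36M against rtTA, and it holds no match to either motif at the spacing searched:
Xaf1: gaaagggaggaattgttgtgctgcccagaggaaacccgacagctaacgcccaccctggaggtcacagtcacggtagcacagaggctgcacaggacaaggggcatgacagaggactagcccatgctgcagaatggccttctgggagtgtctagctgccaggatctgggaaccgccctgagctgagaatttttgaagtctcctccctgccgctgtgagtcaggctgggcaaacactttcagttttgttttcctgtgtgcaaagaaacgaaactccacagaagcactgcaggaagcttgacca

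Rtp4, Ifi35 and Ifi44 completed the list. Rtp4, a chaperone of G protein-coupled receptors induced by type I interferon, stood at 9.85, 13.3 and 13.5 RPKM in K36M, 17.7, 12.4 and 20.6 RPKM in K9M and 24.3, 16.4 and 19.1 RPKM in rtTA libraries. All its K36M values lay below all its rtTA values, and the log2 fold change of -0.68 was not called (limma adjusted p = 0.14). Ifi35, an interferon-induced leucine zipper protein, stood at 18.2, 17.1 and 17.6 RPKM in K36M, 16.7, 14.1 and 14.1 RPKM in K9M and 15.7, 15.9 and 15.1 RPKM in rtTA libraries. It varied least of all members between mice of a group, with a within-group SD of 0.084 on the log2 scale, and its K36M values lay above all others by log2 fold changes of 0.18 against rtTA (limma adjusted p = 0.354) and 0.23 against K9M (limma adjusted p = 0.227). Ifi44 stood at 3.96, 7.01 and 6.42 RPKM in K36M, 12, 3.12 and 7.09 RPKM in K9M and 8.19, 5.89 and 8.29 RPKM in rtTA libraries, a wide spread in which the groups overlapped.

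Counted over all members, groups that did not overlap were more often lower than higher in K36M. In K36M against rtTA, 13 of 39 members (33.3%) did not overlap between groups, where 22.3% of all tested genes did not. Of these 13, Xaf1 and Ifi35 lay above rtTA, where 11.6% of all tested genes did, and 11 lay below, where 10.6% of all tested genes did. The 11 were Irf1, Zbp1, Oasl2, Ifit1, Ifit2, Ifit3, Trim30a, Gbp2, Irgm1, Igtp and Rtp4, and of these Gbp2 passed the test. In K9M against rtTA, 5 of 39 members (12.8%) did not overlap, where 12.5% of all tested genes did not: Ifit2 and Xaf1 above rtTA, where 7.09% of all tested genes lay, and Irf9, Usp18 and Irgm1 below, where 5.43% lay. Between K36M and K9M, 6 of 39 (15.4%) did not overlap, where 27.9% of all tested genes did not. Of these, Dhx58, Oas1a, Eif2ak2 and Ifi35 lay above K9M, where 14.5% of all tested genes did, and Gbp2 and Ifit2 below, where 13.4% did.

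**Figure D4:**
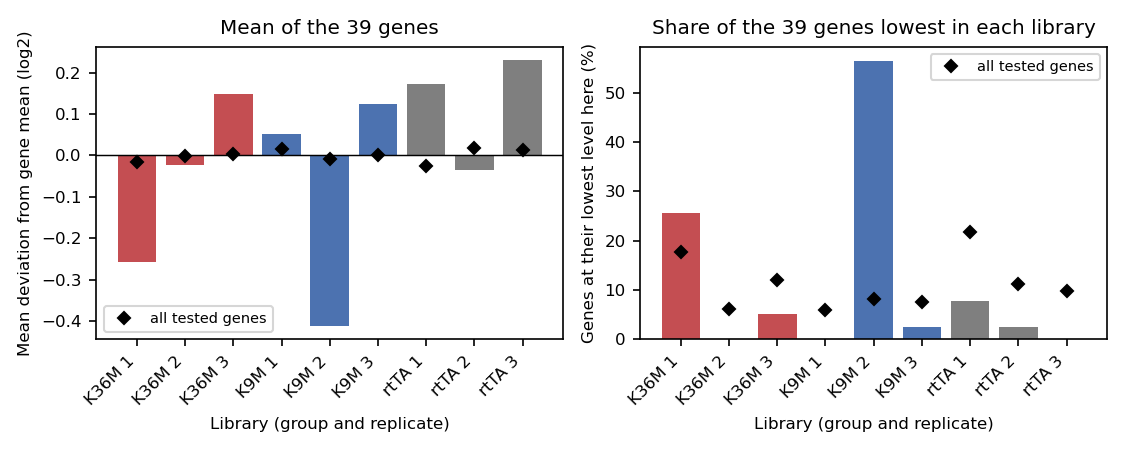
Left, the mean deviation of the 39 tested members from their 9-library mean on the log2 scale (bars, 1 a library), and right, the percentage of the 39 that were lowest in that library, each with the same over all 12926 tested genes (diamonds). K9M 2 stands lowest at -0.41 and rtTA 3 highest at 0.23, while over all tested genes no library departs by more than 0.03.

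The members moved more from mouse to mouse than other genes did. The median within-group SD of the 39 members was 0.288 on the log2 scale, against 0.204 over all tested genes, and 32 of the 39 lay above that value. Oas2, at 0.621, Rsad2, at 0.61, Ifi44, at 0.589, and Ifit3, at 0.583, varied most. The libraries differed in the list as a whole. K9M 2 had the lowest value of all 9 libraries for 22 of 39 members (56.4%), where it was lowest for 8.14% of all tested genes, and it was highest for none. K36M 1 was lowest for 10 members (25.6%, against 17.6% of all tested genes), and K36M 3 was highest for 11 (28.2%, against 19%). The mean deviation was -0.26, -0.02 and 0.15 in K36M, 0.05, -0.41 and 0.12 in K9M and 0.17, -0.04 and 0.23 in rtTA libraries. So each mutant group held 1 library in which the list was low and others in which it lay within the range of the controls. K9M 2 held about 28200000 reads, a depth that 3 of the other 8 libraries did not reach, and the part of depth was not tested. The part of these libraries in the group differences was measured only by leaving each out, as given above for the medians.

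A wider set of interferon-induced genes was read beside the members. Of 67 further genes listed, 56 were tested, and limma called 0 in K36M against rtTA and 0 in K9M against rtTA, with 10 and 6 at an unadjusted p under 0.05, where 19.1% and 7.11% of all tested genes were. Their medians were -0.04 in K36M and -0.17 in K9M against rtTA. In K36M against K9M, 2 of the 56 were called, both higher in K36M. Over all tested genes 2.52% were called there, 1.02% higher and 1.50% lower in K36M. The median of the 56 was 0.10 in this comparison. Apobec3, a cytidine deaminase that mutates retroviral DNA, stood at 34.1, 30.1 and 37.3 RPKM in K36M, 16.4, 6.96 and 15.0 RPKM in K9M and 26.4, 28.8 and 25.6 RPKM in rtTA libraries (log2 fold change of K36M against K9M 1.45, limma adjusted p = 0.0303). Slfn2, a schlafen protein needed for quiescence of immune cells, stood at 12.1, 6.77 and 9.92 RPKM in K36M, 4.02, 2.32 and 2.38 RPKM in K9M and 7.03, 6.08 and 14.3 RPKM in rtTA libraries (1.57, limma adjusted p = 0.0464). For both genes all K9M values lay below all others. The Apobec3 call was lost in 6 of 19 alternatives, among them without K36M 1 (limma adjusted p = 0.113), K36M 3 (0.128), K9M 1 (0.0572) or K9M 3 (0.0784). The Slfn2 call was lost in 8 of 19, among them without K36M 1 (0.158), K36M 3 (0.165) or any 1 K9M library (0.0909, 0.13 and 0.157).

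Promoters were read for the 32 of 41 members that the RefSeq promoter table holds (GRCm38.p6, 250 bases before to 50 after each start). The core of the interferon-stimulated response element was searched as GAAANNGAAA and the gamma-activated site as TTCNNNGAA, on both strands, with overlapping matches counted. The response element core was present in 18 of the 32 members (56.2%), against 3.99% of all genes with a promoter in the table. The gamma-activated site was present in 10 (31.2%), against 9.55% of all genes, and 6 members held both. A few matches of 10 bases, in capitals with 10 bases on either side, show the element that members of different roles share and its place relative to the RefSeq start. Those of Ifit1, Ifit3 and Rsad2 read, like that of Gbp2, on the strand opposite to the gene, and those of Isg15, Igtp and Irgm1 on the strand of the gene:
Gbp2: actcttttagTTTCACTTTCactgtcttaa
Ifit1: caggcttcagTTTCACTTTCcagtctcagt
Ifit3: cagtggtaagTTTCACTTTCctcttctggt
Rsad2: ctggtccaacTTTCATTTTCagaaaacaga
Isg15: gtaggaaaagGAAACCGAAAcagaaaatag
Igtp: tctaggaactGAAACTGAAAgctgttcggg
Irgm1: tcaagaaataGAAACCGAAActgattctca
The capitals begin at base -59 in Gbp2, -104 in Ifit1, -156 in Ifit3, -120 in Rsad2, -72 in Isg15, -34 in Igtp and -24 in Irgm1. Fold changes of members with and without a match are given side by side, with no test. In K36M the median log2 fold change was -0.22 over the 18 members with a match and -0.15 over the 13 tested members without one. In K9M it was -0.20 with a match, 17 of 18 being negative, and -0.23 without one, 10 of 13 being negative. Between K36M and K9M it was -0.05 with a match and 0.11 without one. A match is a description of these letters and not a site of binding. Variants of these letters or of their spacing were not searched, so a window without a match may still hold a variant.

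Markers of other cell types were read beside these results, since immune cells express many of the members. Plasmacytoid dendritic cells, the main makers of type I interferon, were read from 11 markers (Bst2 left out), whose summed level ran from 134 to 235 RPKM in K36M, 198 to 212 RPKM in K9M and 158 to 402 RPKM in rtTA libraries. Ly6d made up most of that sum, at 87.7 to 365 RPKM. Siglech, the defining marker of these cells, stood at most at 0.116 RPKM in the 6 mutant libraries and at 0.375, 0.196 and 1.25 RPKM in rtTA libraries. Klk1, Pacsin1 and Cd209d never reached 1 RPKM, and Klk1 was above 0 in rtTA 2 and rtTA 3 alone. Other markers went the other way in at least 1 mutant. Cox6a2 averaged 16.1 RPKM in K36M, 6.27 RPKM in K9M and 5.18 RPKM in rtTA libraries. Ccr9 averaged 0.765 RPKM in K36M, 2.26 RPKM in K9M and 1.08 RPKM in rtTA libraries. Of the 8 tested markers, Bst2 included, 6 had a negative and 2 a positive fold change against rtTA in each mutant. The 11 markers of mature neutrophils summed to 183 to 422 RPKM in K36M, 470 to 1121 RPKM in K9M and 746 to 6569 RPKM in rtTA libraries. The K36M sums lay below those of both other groups. The 11 monocyte and macrophage markers summed to 143 to 422 RPKM in K36M, 59.4 to 108 RPKM in K9M and 103 to 262 RPKM in rtTA libraries. The 10 erythroid markers summed to 173 to 283 RPKM in K36M, 97.8 to 121 RPKM in K9M and 53.2 to 103 RPKM in rtTA libraries. Hbb-bt, a beta globin gene, made up most of that sum in K36M libraries alone, averaging 163 RPKM in K36M, 23.2 RPKM in K9M and 12.2 RPKM in rtTA libraries. Hbb-bs, Hba-a1 and Hba-a2 averaged less in K36M than in K9M libraries. Of the 8 tested erythroid markers, 7 had a positive fold change in K36M against rtTA, where 52.3% of all tested genes did. In K36M against K9M 5 did, where 51.1% of all tested genes did. The 10 B cell markers summed to 32.9 to 39.4 RPKM in K36M, 21.4 to 27.4 RPKM in K9M and 40.4 to 57.2 RPKM in rtTA libraries. The 12 T and NK cell markers summed to 105 to 150 RPKM in K36M, 127 to 137 RPKM in K9M and 94.3 to 101 RPKM in rtTA libraries. This sum was nearly all Nkg7, at 98.3 to 144 RPKM in K36M, 122 to 129 RPKM in K9M and 89.3 to 94.3 RPKM in rtTA libraries. Klrd1 averaged 0.853 RPKM in K36M, 1.98 RPKM in K9M and 2.62 RPKM in rtTA libraries, and Cd3e, Cd3g, Cd3d, Trac, Cd8a, Ncr1, Gzma and Prf1 never reached 1 RPKM. The 15 markers of LSK cells all reached 1 RPKM and summed to 797 to 835 RPKM in K36M, 967 to 1092 RPKM in K9M and 924 to 1142 RPKM in rtTA libraries. Cd34 and the interferon-induced Ly6a were the largest parts of that sum. In K36M against rtTA 13 of the 15 had a negative fold change, where 47.7% of all tested genes did, and Slamf1 and Mecom a positive one. In K9M against rtTA 9 of the 15 were negative, where 48.7% of all tested genes were. The part of these marker levels in the calls of Gbp2, Ifit2 and Xaf1 was not tested.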

How the data were processed

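RNA was sequenced from sorted LSK cells of 9 mice, 3 a group, and groups were taken from the sample labels. The authors deposited RPKM values per gene. CASAVA 1.7, STAR and mm10 are named per the submitters' processing notes. The sources used here give neither the STAR version nor the strandedness nor the rule for reads matching more than 1 place. PolyA RNA is named as the molecule in the labels and a total RNA kit in their protocol. Depth was read from the steps of the low RPKM values, of which too few came out whole (tolerance 0.02 reads) for a count test. The fit was limma 3.58.1 in R 4.3.3 on log2(RPKM + 0.5), with group means over all 9 libraries, a mean-variance trend, 6 residual and 3.14 prior degrees of freedom, and adjustment over all 12926 tested genes. It was tested on simulated data. Replicates are single, independent mice, as the series design states. Positions are from GENCODE M21, promoters from RefSeq.

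The members, lists and alternatives were chosen with earlier results of these data known. Values in every library were to be given for called members, the 5 smallest p of each comparison and the highest member of each role, and others were added by role. Shared replicate numbers were checked by correlating deviations from group means: for K36M and rtTA the 3 same-number pairs gave 0.414, 0.369 and 0.377. A pairing is not stated in the labels, and with 3 libraries a group these correlations cannot establish it. With the replicate number as a block, no member gained or lost its call in K36M against rtTA, and 301 of all tested genes were called, against 194 without it. For the other comparisons at least 1 pair lay under 0.1. Alternatives varied the pseudocount, the filter, the scaling, the prior and library weights, and added the block, fits to only the groups compared and leaving out each library.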

Additional observations from a re-analysis of the deposited data

Results flagged for a closer look

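Gbp2 and Ifit2 differed between the 2 mutants in their change against the same rtTA libraries, as tested by K36M against K9M. For Gbp2 the difference was -0.97 on the log2 scale (limma adjusted p = 0.0191), from changes of -0.99 in K36M and -0.02 in K9M. For Ifit2 it was -0.753 (limma adjusted p = 0.0212), from changes of -0.48 in K36M and 0.28 in K9M, whose K36M and K9M values lay on opposite sides of all rtTA values. The mutants also differed in the level of H3f3c, and its part in these differences was not tested.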

How the results depend on the processing

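Each result was recomputed under 19 alternatives. Of 380 values of single genes, 330 kept their direction and side of the threshold, 48 kept their direction and lost the call, 2 gained one and 0 reversed. The number of members called in K36M against rtTA, 2, became 1 (Gbp2) without the filter, 0 with only the 2 groups compared, and 0 to 2 with 1 library left out. In K9M against rtTA it was 0 in all 19. In K36M against K9M, 2, it became 4 with the replicate block (Gbp3 and Oas1a, both higher, beside Gbp2 and Ifit2), though same-number pairs there gave 0.074, -0.171 and 0.053 and show no pairing, and 0 to 2 with 1 library left out. Over all tested genes, the 194 called in K36M against rtTA became 76 without the filter, 25 with only the 2 groups, 301 with the replicate block and 10 to 397 with 1 library left out. The 15 in K9M against rtTA became 4 without the filter, 8 with quantile scaling, 62 with library weights, 11 with the replicate block and 3 to 32 with 1 library left out. The 326 in K36M against K9M became 118 without the filter, 595 with the replicate block, 589 with library weights and 15 to 506 with 1 library left out. The member medians ran from -0.25 to -0.05, from -0.30 to -0.10 and from -0.07 to 0.20 in the 3 comparisons with 1 library left out. The causes were not tested. Intervals were wide for members that varied much between mice: that of Oas2 in K9M against rtTA ran from -1.78 to 0.22 on the log2 scale (95%). Members near 1 RPKM rest on few reads, and levels of Oas1a and Ifit3 depend on how reads shared with copies were counted.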

Other observations

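Genes outside the members were looked at after their values were seen. Gbp5, another guanylate-binding protein, stood at 6.39 RPKM in K9M 1 and at most 0.0527 RPKM in the other 8 libraries. Slfn1, a schlafen gene, stood at 4.29 RPKM in rtTA 3 and at most 0.938 RPKM elsewhere. Slfn8, a related schlafen gene, stood at 2.84, 4.11 and 5.57 RPKM in K36M, 3.57, 2.93 and 3.94 RPKM in K9M and 7.30, 8.01 and 8.73 RPKM in rtTA libraries. All 6 mutant values of Slfn8 lay below all 3 rtTA values, with log2 fold changes of -0.90 in K36M (limma adjusted p = 0.0739) and -1.10 in K9M (limma adjusted p = 0.134), neither called.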
